A study of Caenorhabditis elegans with 6 samples.

Results

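The genes described here belong to families of digestive and lysosomal hydrolases of the worm, together with yolk and intestinal marker genes. They are 51 of the 12072 genes listed by the authors' deposited table that compares sorted RIS neurons with whole animals. Membership was decided by gene name alone: aspartic proteases (asp), cysteine cathepsins (cpr, cpl and cpz), lysosomal lipases (lipl), 2 phosphatase families (pho and acp), vitellogenins (vit), and 7 further genes. Those 7 are ges-1, pept-1, act-5, ifb-2, ifc-2, mtl-1 and mtl-2. Whether each member is expressed in the intestine was not tested. The Ensembl annotation gives 18 more genes with names of this form, among them lipl-4 and the other vitellogenin genes, and these were not analysed here.

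RIS is a single interneuron of Caenorhabditis elegans that releases GABA and neuropeptides and promotes sleep. Per the labels, 3 libraries came from RIS cells of the strain RIS::mKate and 3 from whole larvae of strain N2 frozen over LN2. All larvae were L1, obtained from hypochlorite-treated adults and hatched overnight in M9, a buffer without food. RIS cells were marked through the flp-11 promoter, dissociated and collected by flow cytometry, steps that the whole larvae did not go through. The labels' sorting notes name AVK neurons and mCherry, whereas titles, source and cell type name RIS. Strain, dissociation and sorting differ between the groups together with the cell type and cannot be told apart from it. No label says that the libraries of a group came from separate cultures, so the p-values reflect just the variation among these libraries, possibly technical.

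The intestine is the main digestive and storage organ of the worm. Its cells secrete and store hydrolases in acidic lysosomes and gut granules, and bacteria that pass the pharynx are broken down in the lumen and in these compartments. Most intestinal genes are switched on by the GATA factor ELT-2. Starved larvae break down stored material through lysosomal lipases and proteases, partly under the control of the transcription factor HLH-30. Cathepsins also occur in the lysosomes of other cells, neurons included.

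The table holds, for each gene, a log2 fold change that is positive where RIS is higher, a mean level over both groups in CPM (counts scaled to library size), a p-value and an adjusted p. It holds no values per library, so the level in each group, its spread and the depth of each library are unknown. A gene was called where the adjusted p of the authors' deposited table was below 0.05. The 95% intervals given below are approximations from the fold change and its F statistic. The median over all genes was −0.78 on the log2 scale, and a typical gene thus lies below the zero of the table. A test against that all-gene median is given where it ends a call. Genes at few RIS reads have a log2 fold change below −3 and lie at or below the position that 3 RIS reads are estimated to reach. At that position the fitted fold depends on settings of the fit that are unknown. For these the call is given without a fold. The labelled cell type showed its markers, since all 7 measured RIS markers and all 14 panneuronal markers were higher in RIS per the authors' deposited table, with medians of 7.22 and 3.36 (log2). Of the 7, flp-11 is the gene whose promoter marked the cells for sorting, so its rise is not independent of the sort.

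The digestive and intestinal genes were lower in RIS or not called. Of the 51, 29 (56.9%) were lower in RIS, while 26.4% of all genes in the table were lower. None of the 51 was higher per the authors' deposited table, which has the format of edgeR's quasi-likelihood test, against 9.84% of all genes. An unadjusted p below 0.05 was reached by 35 lower and 1 higher, pho-5, beside 32.8% lower and 13.3% higher among all genes. The median log2 fold change of the 51 was −2.02, and 48 of them had a negative value. They are abundant genes, with a median of the mean level of 90.2 CPM against 11.9 CPM for all genes, and 40 of the 51 lie at or above the median expression of the table. Of these 40, 21 (52.5%) were lower, while 23.7% of all genes at or above median expression were lower. Against the all-gene median, 19 of the 51 were lower and 1 was higher, beside 20.3% lower and 16.6% higher among all genes. All of those 19 are among the 29.

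**Figure D1:**
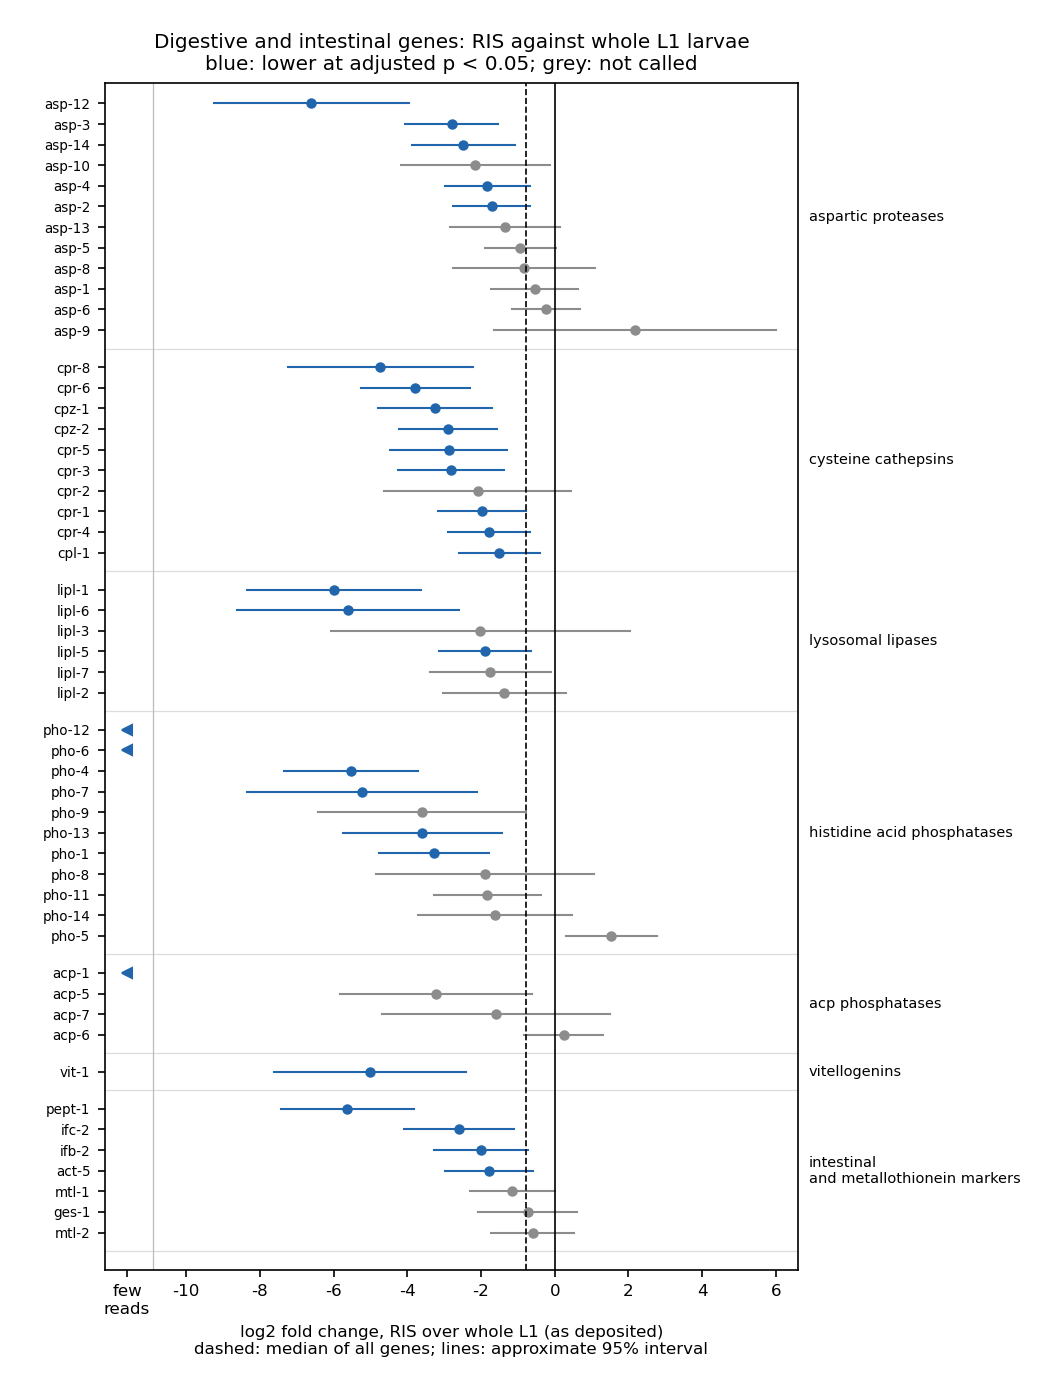
Log2 fold change of each of the 51 genes, RIS over whole L1 larvae, by family. Points are deposited values, lines the approximate 95% interval, blue marks genes called lower, grey those not called, and triangles at the left the 3 genes at few RIS reads, whose fold is not shown. None of the genes was called higher, except pho-5 against the all-gene median, which the dashed line marks at −0.78.

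Markers of several larval tissues lay lower in RIS too. Counts of each marker list are to be read beside the 26.4% lower and 9.84% higher among all genes. Against the all-gene median those shares are 20.3% lower and 16.6% higher. Of 16 measured intestinal markers, a list that shares members with the 51 genes, 10 were lower and 0 higher, with a median of −1.99 and values from −5.62 to −0.30. Against the all-gene median 4 of the 16 were lower, so 6 of the 10 calls ended. Those 4 (pept-1, vit-1, cpr-6 and pho-1) all belong to the 51 genes, so the list mostly repeats them. Of its markers outside the 51, only elt-2 (−2.68, adjusted p = 0.0254) and vha-6 (−2.05, adjusted p = 0.0102) were lower per the authors' deposited table. Against the all-gene median none of the markers outside the 51 was called. These genes are named as markers, outside the rule for named genes. At an unadjusted p below 0.05 there were 12 lower and 0 higher. None of the 16 was at few RIS reads. Medians of the other marker lists were −4.65 for pharynx (9 of 11 lower, 1 higher), −3.06 for hypodermis and seam (5 of 11 lower, 0 higher) and −1.87 for body wall muscle (5 of 10 lower, 0 higher) per the authors' deposited table. Against the all-gene median the lower counts of these lists were 8, 5 and 4, and the higher counts 1, 0 and 1. The muscle marker higher there is unc-54 (1.76 above that median, adjusted p = 0.0139). The pharyngeal marker that was higher is pha-4. Of 7 glial markers 2 (28.6%) were lower (median −0.06) per the authors' deposited table, a share near that of all genes. The 7 germline markers (median 0.84) had none called and 1 lower at an unadjusted p below 0.05, and of 4 coelomocyte markers (median 0.83) 1 was higher, per the authors' deposited table. Against the all-gene median 2 of the 4 coelomocyte markers were higher. The part of RNA from other cells among the sorted ones in the values below was not tested. A bulk comparison cannot tell fewer cells of a type from less RNA per cell.

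The cysteine cathepsins had the highest share of lower genes among the families of more than 1 gene. These papain-type enzymes cut proteins in lysosomes and in the gut lumen. Of 10 genes 9 were lower and 0 higher, and all 10 had negative values, from −4.73 to −1.50 with a median of −2.85. At an unadjusted p below 0.05 the counts were the same. Against the all-gene median 6 of the 10 were lower, beside 6 of the 11 histidine acid phosphatases. Counts of each family are to be read beside the 26.4% lower among all genes, or 20.3% against the all-gene median. Each of the 10 lies at or above the median expression of the table.

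Within that family the cathepsin B-like cpr genes spanned most of the range. The lowest was cpr-8, at −4.73 (interval −7.24 to −2.21, adjusted p = 0.0136) per the authors' deposited table. A gene of far higher mean level, cpr-6 at 1470 CPM, fell 13.7-fold (−3.78, interval −5.27 to −2.3, adjusted p = 0.00614) per the authors' deposited table. For cpr-5, which had the highest mean level per exon length of all 51 genes, the authors' deposited table gave −2.88 (interval −4.47 to −1.29, adjusted p = 0.0156) at 3253 CPM. The fall of cpr-3 was much like it in size, at −2.82 (interval −4.26 to −1.37, adjusted p = 0.0120) per the authors' deposited table, although its mean level was only 67.5 CPM. Of the cpr genes that fell, cpr-1 and cpr-4 fell least. The gut protease gene cpr-1 had −1.97 (interval −3.17 to −0.78, adjusted p = 0.0216) at 1015 CPM per the authors' deposited table. The gene of a secreted cathepsin B, cpr-4, had −1.79 (interval −2.90 to −0.68, adjusted p = 0.0232) at 969 CPM per the authors' deposited table. Both calls ended against the all-gene median, where the adjusted p was 0.109 for cpr-1 and 0.137 for cpr-4. The one uncalled cathepsin gene was cpr-2 (−2.09, interval −4.63 to 0.45, adjusted p = 0.176) per the authors' deposited table. Its interval is wide enough to include both the fall of cpr-6 and no difference.

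The cathepsin Z genes fell by similar amounts. For cpz-1, whose product takes part in moulting, the authors' deposited table gave −3.25 (interval −4.80 to −1.70, adjusted p = 0.00952), a 9.52-fold fall. Its relative cpz-2 had −2.88 (interval −4.21 to −1.56, adjusted p = 0.00842) per the authors' deposited table. The intervals of the pair overlap over most of their length. The cathepsin L gene cpl-1, needed for yolk processing and embryonic development, had the smallest fall of the family, at −1.50 (interval −2.59 to −0.41, adjusted p = 0.0419) per the authors' deposited table. That call ended against the all-gene median, where its adjusted p was 0.268.

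Aspartic proteases are relatives of pepsin and cathepsin D. Of 12 genes 5 (41.7%) were lower and 0 higher, while 26.4% of all genes were lower. At an unadjusted p below 0.05 there were 6 lower and 0 higher. The family's median log2 fold change was −1.53, and the values ran from −6.61 to 2.17. Against the all-gene median 2 of the 12, asp-12 and asp-3, were lower, a share not above the 20.3% of all genes.

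The asp genes best known from work on neurons, asp-3 and asp-4, were among the lower ones. Their products are lysosomal cathepsin D-like enzymes that contribute to the necrotic death of neurons. The log2 fold change of asp-3 was −2.79 (6.93-fold lower, interval −4.06 to −1.53, adjusted p = 0.00813) per the authors' deposited table. With 3316 CPM on average it was the most abundant of the 51 genes before correction for length. The change of asp-4 was smaller, at −1.83 (interval −2.99 to −0.67, adjusted p = 0.0256) per the authors' deposited table, and it lost its call against the all-gene median (adjusted p = 0.140). The intervals of these genes overlap, and the difference between them was not tested. Beside them, asp-14 (−2.48, interval −3.87 to −1.09, adjusted p = 0.0164) and asp-2 (−1.71, interval −2.76 to −0.66, adjusted p = 0.0225) fell per the authors' deposited table. Neither was called against the all-gene median, with adjusted p of 0.0606 and 0.146. The gene asp-10, annotated as hrg-7 in Ensembl, codes for a secreted protein of this fold that carries a heme signal from the intestine to other tissues. It was not called, at −2.15 (interval −4.17 to −0.13, adjusted p = 0.0919) per the authors' deposited table.

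The intestinal protease gene asp-1 was not called despite its high mean level. The authors' deposited table gave it −0.54 (interval −1.73 to 0.64, adjusted p = 0.446) at 947 CPM. Values of the other uncalled genes were −1.34 for asp-13 (adjusted p = 0.141), −0.94 for asp-5 (0.118), −0.83 for asp-8 (0.476) and −0.24 for asp-6 (0.673) per the authors' deposited table. The only positive value of the family was that of asp-9, at 2.17 with an interval from −1.66 to 6.0 (adjusted p = 0.342) per the authors' deposited table, for a gene with a mean of 1.81 CPM. At so low a level the interval covers folds in either direction.

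In 1 stretch of the genome 3 aspartic protease genes lie side by side. The genes asp-6, asp-12 and asp-5 follow each other on chromosome V between positions 8267511 and 8274046, as the authors' deposited table lists them without naming a build. Each gap between neighbours is 316 bases, with no other gene of the table starting between them. The middle gene, asp-12, had −6.61 (interval −9.25 to −3.97, adjusted p = 0.00632) with a mean level of 8.28 CPM per the authors' deposited table. It lies just above the limit of few RIS reads, so the size of its fold is uncertain. Its neighbours asp-6 (interval −1.16 to 0.68) and asp-5 (interval −1.90 to 0.03) had mean levels of 469 and 261 CPM per the authors' deposited table and were not called. The interval of asp-12 overlaps neither of theirs, and the difference was not tested.

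Other members that adjoin each other were called alike or not called. On chromosome II, pho-1 and pho-4 lie 331 bases apart (5233154 to 5238514), and on chromosome V, cpr-5 and cpr-8 lie 448 bases apart (1132598 to 1139172). All 4 were lower in RIS per the authors' deposited table. On chromosome IV, acp-6 and acp-7 lie 2165 bases apart (6424600 to 6431707), and neither was called. Chromosome V holds 26 of the 51 genes (51.0%) but 21.0% of all genes in the table, and chromosome I holds 1.

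**Figure D2:**
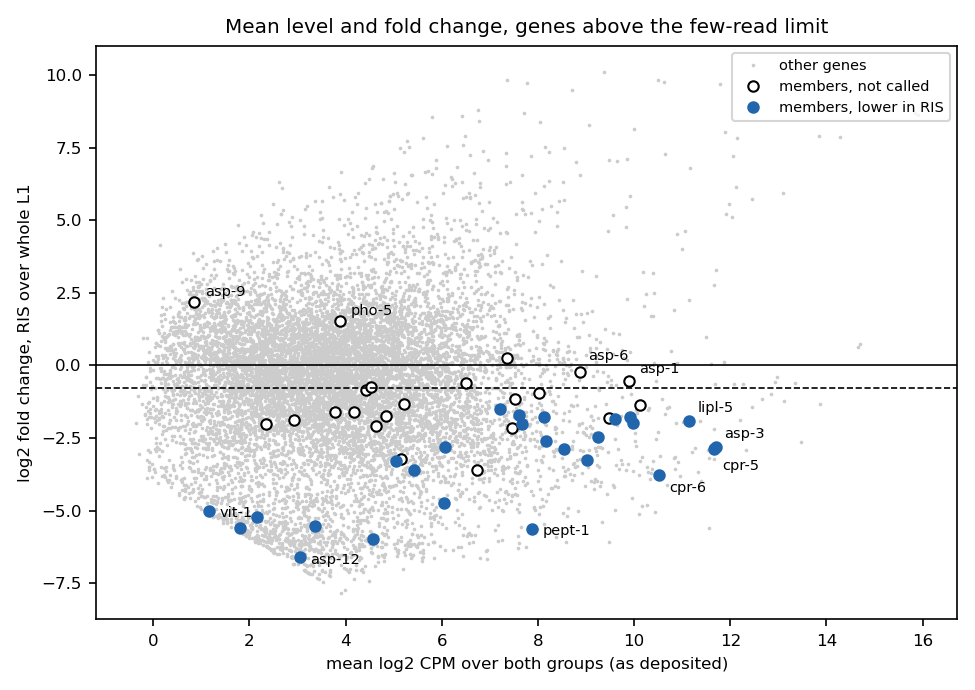
Log2 fold change, RIS over whole L1, against the mean log2 CPM over both groups, for genes above the limit of few RIS reads. Grey points are other genes, filled circles the members called lower and open circles those not called. The abundant members asp-3, cpr-5, cpr-6 and lipl-5 lie between −3.78 and −1.90, whereas asp-12, of low mean level, lies at −6.61.

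The lysosomal lipases cleave stored and ingested fat in acidic compartments. Of 6 genes 3 were lower and 0 higher, with 4 lower and 0 higher at an unadjusted p below 0.05, and all 6 values were negative (median −1.96). The fasting-induced gene lipl-1 was 63.0-fold lower (−5.98, interval −8.34 to −3.62, adjusted p = 0.00621) at 23.7 CPM per the authors' deposited table. Also fasting-induced, lipl-3 was not called, at −2.02 (interval −6.07 to 2.04, adjusted p = 0.405) and a mean of 5.09 CPM per the authors' deposited table. Its interval reaches from a fall as deep as that of lipl-1 to a rise. At 2257 CPM, lipl-5 had −1.90 (interval −3.15 to −0.65, adjusted p = 0.0293) per the authors' deposited table. Its call ended against the all-gene median (adjusted p = 0.143). It had the third highest mean level per exon length of the 51 genes. For lipl-6 the authors' deposited table gave −5.60 (interval −8.61 to −2.58, adjusted p = 0.0142) at 3.51 CPM, just above the limit of few RIS reads. The uncalled lipl-7 had −1.74 (adjusted p = 0.0928) and lipl-2, an abundant gene at 1109 CPM, had −1.37 (interval −3.04 to 0.31, adjusted p = 0.178) per the authors' deposited table.

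The histidine acid phosphatases, of which pho-1 is an intestinal enzyme, were lower or not called as well. Of 11 genes 6 were lower and 0 higher, with 8 lower and 1 higher at an unadjusted p below 0.05, and the median was −3.60. For pho-1 the authors' deposited table gave −3.28 (9.69-fold lower, interval −4.78 to −1.77, adjusted p = 0.00838). Its neighbour pho-4 had −5.53 (interval −7.34 to −3.72, adjusted p = 0.00448), the smallest adjusted p of the family, per the authors' deposited table. Further falls were −3.60 for pho-13 (adjusted p = 0.0209) and −5.23 for pho-7 (adjusted p = 0.0202) per the authors' deposited table. With a mean level of 4.45 CPM, pho-7 is close to the limit of few RIS reads. The last of the lower genes, pho-6 (adjusted p = 0.00719) and pho-12 (adjusted p = 0.0135), were at few RIS reads per the authors' deposited table, so no fold is given. Their mean levels were 1.93 and 1.52 CPM.

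Uncalled phosphatase genes included the most abundant of the family. This was pho-11, with a mean of 716 CPM and a value of −1.82 (interval −3.28 to −0.37, adjusted p = 0.0564) per the authors' deposited table. The next in mean level, pho-9 at 106 CPM, had −3.61 (interval −6.43 to −0.79, adjusted p = 0.0530) per the authors' deposited table. Both missed the threshold narrowly, and the interval of pho-9 is the wider one. Values of pho-14 (−1.62, adjusted p = 0.20) and pho-8 (−1.90, adjusted p = 0.284) were further from it per the authors' deposited table. The gene pho-8 overlaps nphp-4 by 2080 bases on the other strand, and reads of the pair cannot be told apart if counting ignored strand. One phosphatase gene had a positive value of some precision, pho-5 at 1.54 (interval 0.30 to 2.78, adjusted p = 0.0586) and 14.8 CPM per the authors' deposited table. Against the all-gene median it was called higher (2.32, adjusted p = 0.0150), the only member that was.

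The acp genes, a second and small set of phosphatase genes, were counted apart from the pho genes by name alone. Of 4 genes 1 (25%) was lower and 0 higher, a lower share near the 26.4% of all genes. At an unadjusted p below 0.05 there were 2 lower and 0 higher. The lower gene was acp-1 (adjusted p = 0.00291), which had the smallest adjusted p of all 51 genes per the authors' deposited table. It was at few RIS reads with a mean of 10.99 CPM, so no fold is given. The authors' deposited table listed −3.22 for acp-5 (adjusted p = 0.0598), −1.59 for acp-7 (adjusted p = 0.389) and 0.24 for acp-6 (interval −0.83 to 1.31, adjusted p = 0.716). At 164 CPM acp-6 was the most abundant of the family.

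Vitellogenins are yolk lipoproteins that the intestine of adult hermaphrodites makes for the oocytes, and larvae carry yolk protein left from the embryo. Of this family vit-1 alone had values, at −5.01 (interval −7.61 to −2.41, adjusted p = 0.0125) with a mean of 2.24 CPM, per the authors' deposited table. Its level per exon length was the lowest of the 51 genes, and it lies just above the limit of few RIS reads. Vitellogenin genes resemble each other in sequence, and how the authors assigned reads shared between them is not given in the sources used here.

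Marker genes of the intestinal surface and cytoskeleton fell to very different degrees. The peptide transporter gene pept-1, which brings dipeptides from the lumen into the cell, was 49.3-fold lower (−5.62, interval −7.44 to −3.81, adjusted p = 0.00435) at 234.8 CPM per the authors' deposited table. Intermediate filament genes of the terminal web followed, with −2.59 for ifc-2 (interval −4.08 to −1.11, adjusted p = 0.0177) and −2.0 for ifb-2 (interval −3.29 to −0.72, adjusted p = 0.0266) per the authors' deposited table. The gene of the microvillar actin, act-5, had −1.79 (interval −2.98 to −0.59, adjusted p = 0.0310) per the authors' deposited table. The calls on ifc-2, ifb-2 and act-5 ended against the all-gene median, with adjusted p of 0.0606, 0.123 and 0.166, and that on pept-1 did not (0.00666). The gut esterase gene ges-1, a classic marker of the intestinal lineage, was not called, at −0.74 (interval −2.08 to 0.60, adjusted p = 0.357) and 23.2 CPM per the authors' deposited table. Its interval does not overlap that of pept-1, and the difference was not tested.

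The metallothionein genes, whose small cysteine-rich products bind cadmium and zinc, were not called. For mtl-1, which is also active in the pharynx, the authors' deposited table gave −1.16 (interval −2.31 to −0.01, adjusted p = 0.107). The intestinal mtl-2 had −0.60 (interval −1.72 to 0.52, adjusted p = 0.370) per the authors' deposited table. Per exon length both had higher mean levels than the 5 other marker genes, at 491 and 260 CPM per kb.

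Mean levels over both groups spanned a wide range, and a few genes held most of the total. On the scale of mean CPM per kb of exon, cpr-5 (2699), asp-3 (2268), lipl-5 (1789) and cpr-6 (1167) led, and vit-1 (0.440) and pho-12 (1.07) came last. The 5 members of highest mean CPM made up 55.3% of the summed mean CPM of the 51 genes, which came to 20630 CPM. Of the 6 members at or above 1000 CPM, 5 were lower, with a median log2 fold change of −2.38, while 47.4% of the 116 genes of that level in the whole table were lower, with a median of −1.43. Among the 11 members below the median expression of the table, 8 were lower, with a fitted median of −5.53, while 29.0% of all such genes were lower. Spearman's rho between mean log2 CPM and log2 fold change was 0.23 over the 51 genes and 0.10 without the 3 at few RIS reads. Both quantities come from the same libraries, and rho was 0.18 over all genes.

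**Figure D3:**
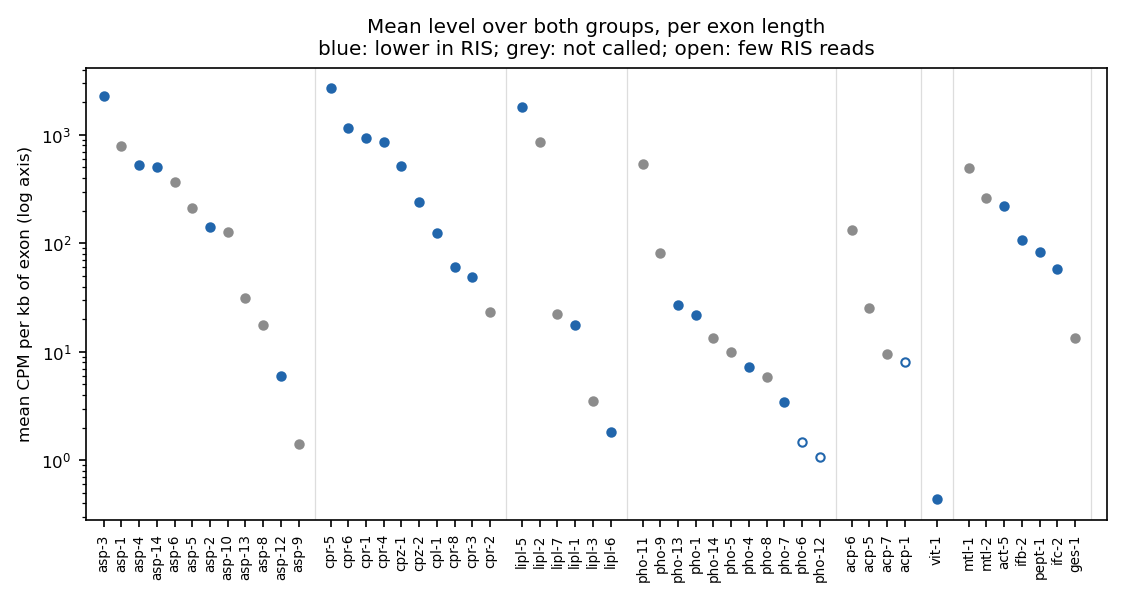
Mean CPM over both groups per kb of annotated exon, on a log axis, for each of the 51 genes by family. Blue points were lower in RIS, grey points were not called, and open points had few RIS reads. The values run from 2699 for cpr-5 to 0.440 for vit-1, and those of the cysteine cathepsins down to 23.3 for cpr-2.

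Other genes of the intestine and of digestion were read from 9 lists, without the 51 members. Shares of these lists are to be read beside the 26.4% lower and 9.84% higher among all genes. Counts against the all-gene median are to be read beside 20.3% lower and 16.6% higher among all genes. Among 15 intestinal transcription factors and regulators 4 (26.7%) were lower and 3 (20.0%) higher, and 1 was lower and 3 higher against the all-gene median. In the authors' deposited table the homeobox gene unc-62 fell (−3.31, adjusted p = 0.00465) while the Myc- and Mondo-like gene mml-1 (2.82, adjusted p = 0.00844) and hlh-30 (1.84, interval 0.93 to 2.76, adjusted p = 0.0107) rose. HLH-30 is the transcription factor that induces lysosomal lipases on fasting, and its effect on the lipase genes was not tested. The master regulator gene elt-2 fell (−2.68, adjusted p = 0.0254) at only 5.81 CPM, and its partner elt-7 was not called (−1.60, adjusted p = 0.0843) per the authors' deposited table. The call on elt-2 ended against the all-gene median (adjusted p = 0.0787). Both are named as defining markers of the intestine, outside the rule for named genes.

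Genes of the brush border and terminal web had 5 of 12 lower and 0 higher, also at an unadjusted p below 0.05, but 2 of 12 lower against the all-gene median. The intermediate filament genes ifp-1 (−4.83, adjusted p = 0.00512) and ifd-2 (−4.85, adjusted p = 0.00752) and the actin-bundling gene eps-8 (−2.09, adjusted p = 0.0115) fell per the authors' deposited table. Of these named genes, eps-8 lost its call against the all-gene median (adjusted p = 0.0575). Of 14 transporter genes 4 (28.6%) were lower and 1 (7.14%) higher, and 3 were lower and 4 higher against the all-gene median. There the chloride channel gene clh-4 (−6.10, adjusted p = 0.00763) and the zinc transporter gene cdf-2 (−3.45, adjusted p = 0.00908) fell, aat-6 fell to few RIS reads and the sulfate permease gene sulp-1 rose (3.90, adjusted p = 0.0121) per the authors' deposited table. The median of the transporter list was −0.82, close to that of all genes.

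Of 34 lysosome and gut granule genes 11 (32.4%) were lower and 3 (8.82%) higher, and their median was −1.74. By these adjusted calls the shares lay near those of the whole table. Without adjustment the lower share lay above it. There 18 of the 34 were lower and 3 higher, beside 32.8% lower and 13.3% higher in the whole table. Negative values were found for 27 of the 34. The counts were 9 lower and 5 higher against the all-gene median. Homologues of the human Batten disease gene CLN3, cln-3.3 (−6.29, adjusted p = 0.00398) and cln-3.1 (−5.96, adjusted p = 0.00551), and the gut granule gene glo-3 (−5.72, adjusted p = 0.00495) fell per the authors' deposited table. The AP-3 adaptor gene apd-3 (2.61, adjusted p = 0.00660) and the intramembrane peptidase gene imp-2 (1.57, adjusted p = 0.0207) rose per the authors' deposited table. Of 20 other peptidase genes 4 (20.0%) were lower and 2 higher, and 3 were lower and 3 higher against the all-gene median. The carboxypeptidase-like gene pcp-1 (−3.82, adjusted p = 0.00517) and dpf-6 (−4.71, adjusted p = 0.00527) fell per the authors' deposited table. The aminopeptidase gene lap-2 (2.64, adjusted p = 0.00612) and the calpain gene clp-1 (1.35, adjusted p = 0.0479) rose per the authors' deposited table.

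Of 25 genes of other lipid hydrolysis and lipid carriers 12 were lower and 0 higher, with 13 lower and 0 higher at an unadjusted p below 0.05 and 7 lower against the all-gene median. Among them the authors' deposited table listed lips-3 (−5.79, adjusted p = 0.00382), lips-15 (−6.60, adjusted p = 0.00439) and the fasting-induced lipase gene fil-1 (−4.14, adjusted p = 0.00740). Of 27 glycosidase and lysozyme genes 10 were lower and 1 higher, and 6 were lower and 1 higher against the all-gene median. The lysozyme gene lys-2 (−4.15, adjusted p = 0.00474) and the alpha-glucosidase-like gene aagr-2 (−3.04, adjusted p = 0.00739) fell, tre-5 fell to few RIS reads, and the trehalase gene tre-2 rose (1.82, adjusted p = 0.0263) per the authors' deposited table. Of 18 metal response genes 6 were lower and 0 higher, also at an unadjusted p below 0.05, and 4 were lower against the all-gene median. The heavy metal transporter gene hmt-1 (−4.21, adjusted p = 0.00727) and the ferritin gene ftn-2 (−2.3, adjusted p = 0.00903) fell per the authors' deposited table, beside cdf-2.

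Of 15 genes of endocytosis and yolk trafficking 1 was lower and 1 higher, and their median was 0.60. Their difference from the hydrolases was not tested. The dynamin gene dyn-1, which also serves synaptic vesicle recycling, rose (3.78, adjusted p = 0.00344), and the megalin-like receptor gene lrp-1 of the epidermis fell (−3.40, adjusted p = 0.00502) per the authors' deposited table. Against the all-gene median 5 of the 15 were higher and 1 lower.

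**Figure D4:**
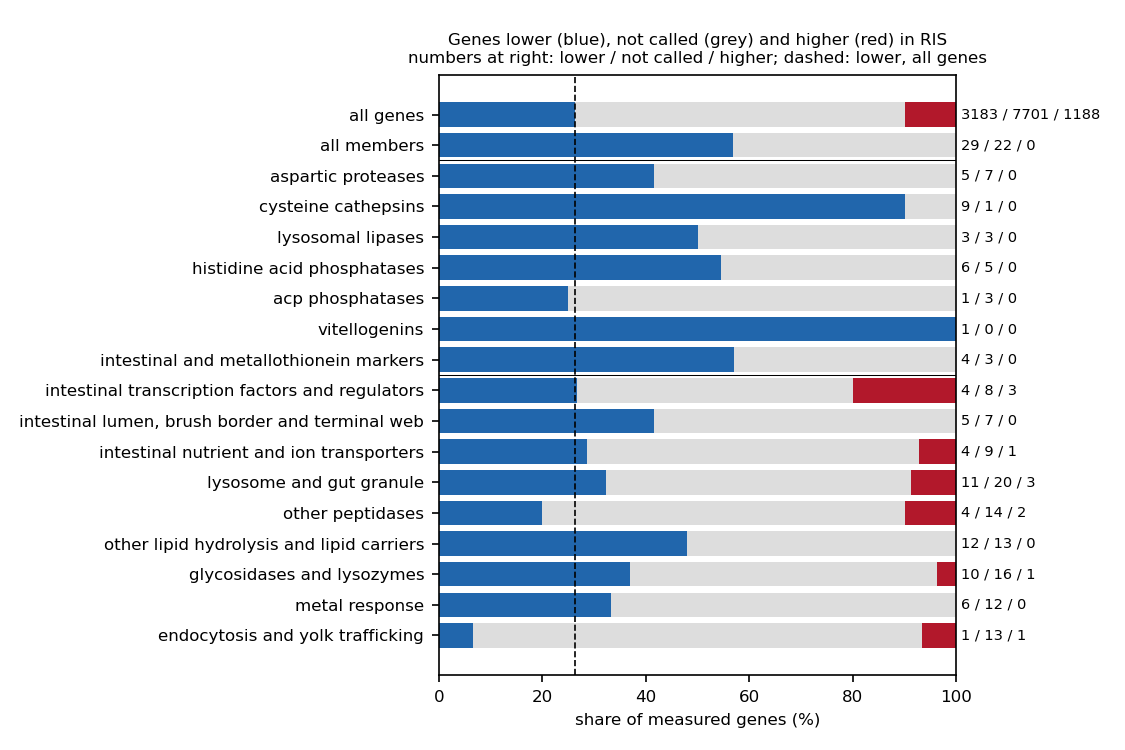
Share of measured genes that were lower (blue), not called (grey) or higher (red) in RIS, for all genes, the 51 members, their families and 9 lists of other genes, with the counts at the right. The cysteine cathepsins have 9 of 10 genes lower, the endocytosis list 1 of 15, and the dashed line marks the 26.4% lower among all genes.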

How the data were processed

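RNA was sequenced from 3 libraries of sorted RIS cells and 3 of whole L1 larvae, with groups taken from the titles. Per the labels, a low-input Smart-Seq kit made the cDNA, which was sequenced on an Illumina HiSeq instrument. Aligner, counting tool, build and annotation were not given in the sources used here. Per the file headers, the authors deposited 1 table of 12072 genes whose columns are log2 fold change, mean log2 CPM, F score, p-value and adjusted p-value, the format of edgeR's quasi-likelihood test. No column holds values of a library, so depth and its precision are unknown.

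The members and lists were chosen with earlier results of these data known. Members were matched by symbol, and all 51 identifiers were found in Ensembl release 115 (WBcel235), 35 with a shared start or end. Exon lengths come from there and coordinates from the table. Of the 51 genes, 11 overlap another gene of the table, 3 by at least 100 bases (pho-1, pho-8 and acp-5). Every member could be named. Of each list of other genes, up to 3 called genes by adjusted p and up to 2 called against most of the list were named.

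Denominator degrees of freedom were recovered from F and p (6.76, and 5.76 for 170 genes). From this lower value the 170 genes were taken to be without RIS reads. That reading cannot be checked without values per library. Each standard error was approximated by dividing the size of the log2 fold change by the square root of its F. Genes at few RIS reads were searched among log2 fold changes below −3. Their log2 CPM and log2 fold change add up to at most 4.80 above the genes taken to be without RIS reads. That limit is the position that 3 reads are estimated to reach plus a margin of 0.25. There are 947 such genes, 939 of them called lower, a share that the limit on the fold change favours. Their fitted fold changes depend on an unknown prior count and are not printed. Family and list counts and medians include them as fitted values. The test against the all-gene median used these errors with Benjamini-Hochberg adjustment over the table. Software was scipy 1.17.1, numpy 2.4.6 and pandas 2.3.3 under Python 3.11.15, with matplotlib 3.10.9 for figures.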

Additional observations from a re-analysis of the deposited data

How the results depend on the processing

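At an adjusted p below 0.01, 11 of the 51 genes were lower and 0 higher, with 1716 lower and 591 higher among all genes. Relative to the median of all genes, 19 members were lower and 1 (pho-5) higher, with 1999 higher among all genes, and 10 members lost their call. There the values of asp-1 (0.24), asp-6 (0.54), ges-1 (0.042) and mtl-2 (0.18) turned positive, none of them called. Among the 6036 genes at or above median expression 1431 (23.7%) were lower and 917 (15.2%) higher. Among the 6759 genes with public names 1655 (24.5%) were lower and 768 (11.4%) higher. A fold change of at least 2 and adjustment over public names changed the call of none of the 51 genes, and the expression filter and the removal of genes at few RIS reads none of the 40 and 48 genes left. The cause of the differences between settings was not tested. Unknown depth limits genes of low mean level, where intervals are wide. Leaving out libraries could not be tried on a table without values per library. No paired analysis was possible because the deposited table holds no values per library.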
